A study of Mus musculus with 9 samples.

Results

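The small proline-rich (Sprr) genes were followed through the mouse epididymis by single-cell RNA-seq. Members were all rows of the deposited count table whose symbol starts with Sprr, which gave 9 of 32195 genes, led by Sprr1a and Sprr2f. Both had been picked for their level in the cauda at 56 days of age (P56), so their values by segment and age are a description and were not tested. Wild-type mice, C57BL/6 in the labels and C57BL/6J in the study's methods, received no treatment, and epididymides of several mice were pooled for each library, so that no value belongs to 1 animal. The caput, corpus and cauda were dissociated separately, and cells were captured on a microfluidic chip, where each transcript received a unique molecular identifier (UMI) that lets PCR copies be counted once. There were 9 libraries, namely the 3 segments of 1 pool of 42-day-old (P42) mice (5 mice at this age) and the 3 segments of each of 2 pools of P56 mice (10 mice at this age), called pool 1 and pool 2. Age and the day of sampling cannot be told apart, since the P42 epididymis was a single pool.

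Sprr genes encode short proteins rich in proline, glutamine and cysteine. In stratified squamous epithelia such as epidermis and oral mucosa, transglutaminases cross-link them, together with loricrin and involucrin, beneath the plasma membrane of the dying keratinocyte to form the cornified envelope. They sit in the epidermal differentiation complex, a cluster that also holds the S100, late cornified envelope (Lce) and filaggrin-type genes. Outside squamous tissue they are known as genes induced on injury, inflammation and hormonal stimulation, as in the uterus under oestrogen and in the regenerating bile duct and intestine. The epididymal duct, which matures and stores sperm, is a pseudostratified epithelium of principal, basal and clear/narrow cells that does not keratinize.

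After limits on genes, UMIs and mitochondrial UMIs per cell, 42087 of 44869 barcodes were kept, and globin-rich cells were then left out. The libraries held 18547991 to 40332547 UMIs in 3951 to 4836 cells. Median UMIs per cell were 3086.5 in the P42 cauda against 6424 and 7641 in the P56 cauda, and mitochondrial genes took 10.5% of UMIs in the P42 cauda and 17.5% and 15.8% in the P56 cauda. Only 143 barcode sequences occurred in more than 1 library. Levels are given as CPM, the UMIs of a gene with the library scaled to a total of 1000000 UMIs, without correction for gene length. A difference in CPM of a whole library cannot tell more cells expressing a gene from more RNA in each.

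All 9 members lay on chromosome 3, between Sprr2a3 at its low-coordinate end (chr3:92285304-92289264, GRCm38.p6) and Sprr1a at the other (chr3:92483954-92485881). RefSeq calls Sprr2g a transcribed pseudogene and the other 8 protein-coding. The upstream sequences of members that differed most in their pattern are shown to let the reader compare them. Each holds the 250 bases before the RefSeq start of the gene (GRCm38.p6), 5′ to 3′ on the gene's own strand, and capitals mark every TGANTCA, the core letters bound by AP-1 (Fos and Jun dimers). Sprr1a (chr3:92485882-92486131, minus strand) and Sprr2f (chr3:92364937-92365186, plus strand) lead the family, Sprr2h (chr3:92385435-92385684, plus strand) was seen in the P56 cauda and in no other library, Sprr2b (chr3:92316455-92316704, plus strand) was highest in the P42 caput, and Sprr2a3 (chr3:92285054-92285303, plus strand) has no such match.
Sprr1a: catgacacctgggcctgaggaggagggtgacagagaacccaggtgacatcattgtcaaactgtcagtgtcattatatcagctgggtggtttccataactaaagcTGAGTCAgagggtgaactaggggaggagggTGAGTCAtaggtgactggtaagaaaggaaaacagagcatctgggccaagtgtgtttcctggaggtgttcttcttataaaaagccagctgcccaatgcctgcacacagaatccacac
Sprr2f: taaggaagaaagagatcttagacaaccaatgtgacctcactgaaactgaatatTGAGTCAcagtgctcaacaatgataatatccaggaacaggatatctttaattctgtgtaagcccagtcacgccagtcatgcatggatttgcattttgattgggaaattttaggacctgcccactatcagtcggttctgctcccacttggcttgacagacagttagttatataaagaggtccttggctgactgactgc
Sprr2h: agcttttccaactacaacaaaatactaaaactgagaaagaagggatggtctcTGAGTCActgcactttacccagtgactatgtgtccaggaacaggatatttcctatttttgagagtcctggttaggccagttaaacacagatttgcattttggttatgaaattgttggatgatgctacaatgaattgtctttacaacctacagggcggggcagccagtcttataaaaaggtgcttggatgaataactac
Sprr2b: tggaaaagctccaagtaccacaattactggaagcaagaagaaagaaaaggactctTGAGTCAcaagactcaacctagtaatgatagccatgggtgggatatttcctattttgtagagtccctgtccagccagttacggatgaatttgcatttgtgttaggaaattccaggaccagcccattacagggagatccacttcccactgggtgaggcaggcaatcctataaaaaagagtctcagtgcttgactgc
Sprr2a3: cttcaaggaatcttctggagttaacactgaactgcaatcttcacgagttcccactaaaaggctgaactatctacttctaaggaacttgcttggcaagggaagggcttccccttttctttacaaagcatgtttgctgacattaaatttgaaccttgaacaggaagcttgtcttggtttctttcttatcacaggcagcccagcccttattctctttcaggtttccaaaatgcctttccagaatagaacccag

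AP-1 letters stood in 7 of the 8 members with an upstream sequence, against 6.75% of 32851 promoters of 27025 genes. Over all 14 Sprr promoters in the RefSeq table, including genes that are not rows of the count table, 9 had a match. Sprr1a had 2 matches, the first bases of which lay 146 and 116 bases before the start. In the Sprr2 genes of the count table with a match its first base lay 193 to 198 bases before the start, whether the gene was high in the P56 cauda (Sprr2f, 197) or not (Sprr2b, 195). The letters TATAAA stood in 7 of the 8 (12.4% of all promoters) and the octamer ATTTGCAT, on either strand, in 5 of the 8 (1.60% of all promoters). No ETS (CCGGAAGT) or KLF (CCACACCC) letters were found in the 8 windows, and none of the AP-1, TATA and octamer matches overlapped. A match is a run of letters, not a measured binding site, and Sprr2g had no upstream sequence in the table. Sprr2a3, the member without AP-1 letters, also lacked the TATA and octamer letters. Its transcript has 2880 bases, against 609 to 830 in the other members. Whether its annotated start is comparable to theirs was not tested.

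Sprr1a, which encodes a cornified envelope precursor, was by far the member with the most UMIs (6334 over the 9 libraries). At P42 the caput held 0.815 CPM, the corpus 2.44 CPM and the cauda 0.323 CPM. At P56 pool 1 held 0.804, 8.38 and 50.8 CPM in the same order, and pool 2 held 0.476, 12.7 and 96.0 CPM. The caput was low at both ages, the corpus was the highest segment at P42 and intermediate at P56, and both P56 cauda libraries stood above the other 7 libraries, with no overlap. The P42 corpus level rests on few cells, since 32 of its 46 UMIs were in cells that entered no marker class, and 2 cells held 71.9% of those. The P56 cauda mean was 73.4 ± 31.97 CPM (SD, n = 2) and the P56 corpus mean 10.5 ± 3.03 CPM (SD, n = 2). Within a pool the cauda was 6.06-fold and 7.59-fold above the corpus, and it was 157-fold and 297-fold above the P42 cauda, where 6 UMIs were counted. The pools themselves differed 1.89-fold in the cauda.

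Sprr2f, known in the uterus as a target of oestrogen, followed a narrower pattern. Its UMIs numbered 1, 6 and 0 in caput, corpus and cauda at P42, then 1, 0 and 400 in pool 1 and 0, 3 and 650 in pool 2 at P56. The P56 cauda reached 11.2 and 16.1 CPM (mean 13.7 ± 3.46, SD, n = 2) and held 99.0% of all Sprr2f UMIs. Against the P42 cauda with 0 UMIs, which allows up to 0.162 CPM (3 counts), the P56 cauda was at least 69.4-fold higher in pool 1 and at least 99.6-fold higher in pool 2. Unlike Sprr1a, Sprr2f had next to no UMIs in the P56 corpus, where pool 1 had 0 (up to 0.120 CPM).

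**Figure D1:**
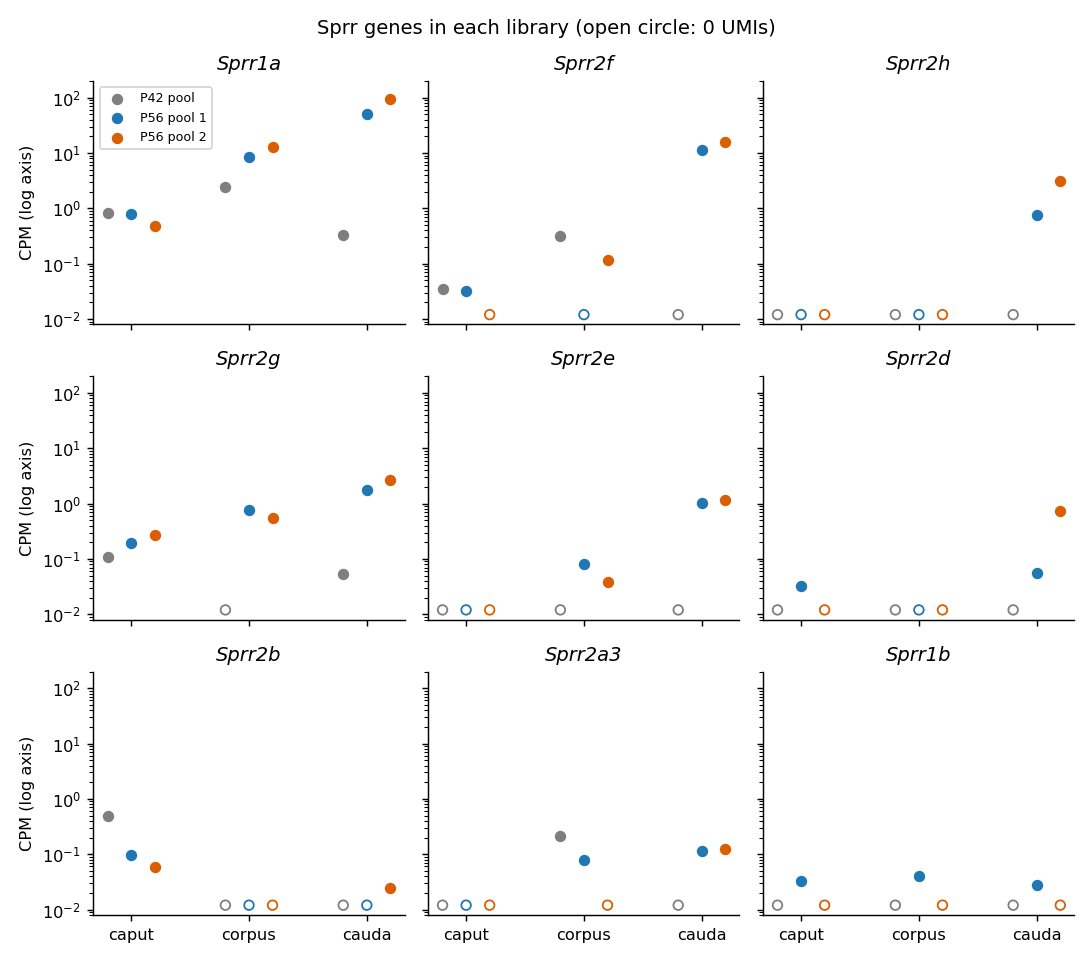
CPM (log axis) of the 9 Sprr genes by segment, with 1 point for each library coloured by pool; open circles at the foot are libraries with 0 UMIs. Sprr1a lay lowest in the caput at P56 (0.804 and 0.476 CPM) and highest in the P56 cauda (50.8 and 96.0 CPM), while the P42 cauda lay at 0.323 CPM.

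The other Sprr2 genes had far fewer UMIs. Sprr2h had 27 UMIs in the cauda of pool 1 and 128 in that of pool 2, and 0 in the other 7 libraries. Sprr2e had 37 and 46 UMIs in the P56 cauda, 2 and 1 in the P56 corpus and 0 elsewhere. Sprr2d had 2 and 30 UMIs in the P56 cauda and 1 UMI in a P56 caput library. These 3 genes were thus seen in the P56 cauda with few UMIs elsewhere, and pool 2 held 4.19 times the Sprr2h CPM of pool 1.

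The pseudogene Sprr2g was spread more widely. Its CPM was 0.106, 0 and 0.0539 in caput, corpus and cauda at P42, 0.193, 0.761 and 1.79 in pool 1 and 0.268, 0.543 and 2.68 in pool 2. Like Sprr1a it was lowest in the caput and highest in the cauda in both P56 pools. Sprr2b went the other way, with 14 UMIs in the P42 caput, 3 and 2 in the P56 caput and 1 in all other libraries together. Sprr2a3 (15 UMIs) and Sprr1b (3 UMIs) were too sparse to be ordered.

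Of the 8 members with at least 10 UMIs, 6 had both P56 cauda libraries above the other 7 libraries, a pattern that 3.32% of 25553 genes with as many UMIs shared. Since the leading members were chosen on this contrast, nothing is read from that count. All Sprr UMIs together amounted to 0.377 CPM in the P42 cauda and to 65.8 and 120.0 CPM in the P56 cauda, of which Sprr1a held 77.2% and 80.0%, and Sprr2f 17.1% and 13.4%. Runs of 75 transcript bases of Sprr1a, Sprr2f, Sprr2g and Sprr2h were found in no other Sprr gene. Of those of Sprr2a3, 47.5% also occurred in another one, mostly Sprr2a1, which is not a row of the count table. How reads from shared runs were counted was not tested, so the Sprr2a3 count may be too low or too high.

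Cells were next sorted into classes by fixed marker genes. A cell entered the basal class (Krt5, Krt14, Trp63 and others), the clear/narrow class (proton pump subunits and Foxi1) or a non-epithelial class when its markers exceeded their share in the library 3-fold and by a Poisson test, and the principal class when it passed none of these and its principal cell markers reached the library's average. Of the cells within the limits, 17165 were principal-gated, 1269 basal-gated and 3261 clear/narrow-gated, and the others belonged to other classes or none. A gate is a range on a score, and 5645 cells lay within 10% of the principal cut and 750 near the basal cut. Basal check genes kept out of the gate were higher in basal-gated cells than in the other epithelial classes (2.60-fold to 12.2-fold, 4 of 4 genes), as were 3 of 3 principal check genes in principal-gated cells (2.18-fold to 3.58-fold), whereas Car12, one of 4 clear cell check genes, was 0.432 times its level in basal-gated cells. Cells of all 9 libraries were pooled for these ratios, so the gate was not checked within the cauda alone. The ratios also compare epithelial classes only. The principal check gene Defb21 was at 238 CPM in principal-gated cells, but at 312 CPM in cells that entered no class. It was at 276, 272 and 260 CPM in ciliated-gated, sperm-gated and halo/T-gated cells. Lcn6 was at 587 CPM in principal-gated and 614 CPM in ciliated-gated cells. Spag11b was highest in principal-gated cells (11337 CPM), with 11142 CPM in ciliated-gated cells. Median principal marker UMIs per 10000 were 562 in principal-gated cells but still 170 in basal-gated and 155 in clear/narrow-gated cells, and basal markers had a median of 0 in principal-gated and clear/narrow-gated cells.

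Sprr1a was higher in basal-gated than in principal-gated cells in the corpus and cauda of both P56 pools. In the P56 corpus basal-gated cells held 90.3 CPM in pool 1 and 147 CPM in pool 2, against 2.93 and 7.38 CPM in principal-gated cells. In the P56 cauda basal-gated cells held 146 and 197 CPM, against 42.7 and 97.1 CPM in principal-gated and 19.5 and 30.9 CPM in clear/narrow-gated cells. Basal cells sit on the basement membrane and carry keratins of stratified epithelia. The gap between the classes was wider in the corpus than in the cauda, a description, since the members were chosen on the segment contrast. By number, most corpus UMIs lay outside the basal gate. Basal-gated cells held 39 of 209 UMIs in pool 1 and 75 of 326 in pool 2, and cells that entered no class held 114 and 124 (10.99 and 15.2 CPM). In the P42 cauda 2 UMIs were found in principal-gated cells and 0 in 65 basal-gated cells, which allows up to 5.52% of cells with a UMI (exact Clopper-Pearson).

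The class contrast was not used to choose the genes and was tested on UMIs summed per library and class, by edgeR's quasi-likelihood test with the library as a block. Over 9 libraries Sprr1a was higher in basal-gated than in principal-gated cells by a log2 difference of 2.39 (SE 0.422, adjusted p = 6.01e-05) and than in clear/narrow-gated cells by 3.52 (SE 0.505, adjusted p = 5.93e-06). It was lower in clear/narrow-gated than in principal-gated cells by a log2 difference of -1.12 (SE 0.470, adjusted p = 0.0474). Outside the P56 corpus and cauda the basal minus principal contrast rested on few UMIs. Basal-gated against principal-gated cells held 1 against 7 in the P42 caput, 3 against 3 in the P42 corpus and 0 against 2 in the P42 cauda. In the P56 caput they held 11 against 5 in pool 1 and 1 against 3 in pool 2. By CPM the basal-gated cells were above the principal-gated cells in each of these but the P42 cauda. Of all 9706 genes tested, 9.78% were called higher and 9.05% lower in basal-gated than in principal-gated cells, 7.87% higher and 7.03% lower in basal-gated than in clear/narrow-gated cells, and 8.83% higher and 9.52% lower in clear/narrow-gated than in principal-gated cells. With the 3 cauda libraries alone the basal minus principal difference was 0.91 (adjusted p = 0.00280), under the log2 limit of 1, and without the library block (no replicate block) it was 1.54 (adjusted p = 0.331). Basal minus clear/narrow was not called without the library block either. The clear/narrow minus principal call was lost with DESeq2 (-0.79, adjusted p = 0.192), without the library block (-1.59, adjusted p = 0.329) and with a stricter gate (-0.0298). It was also lost when pool 2 (-0.51, adjusted p = 0.504) or the P42 pool (-1.23, adjusted p = 0.0687) was left out. Without pool 1 Sprr1a did not pass the filter on low counts. It passed with all libraries through sums of the P56 libraries, where it was high. Those of the P56 cauda, on which it was chosen, were among them, so its p-values are not independent of that choice. Genes of other lists were also higher in basal-gated than in principal-gated cells, with 12 of 14 dissociation stress genes (median log2 difference 1.35), 11 of 17 regulators (1.29) and 11 of 15 epithelial repair genes (2.04) called by edgeR, beside a median of -0.04 over all genes, and the part of the stress genes in the Sprr1a difference was not tested.

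Sprr1a was the 1 member that passed the filter on low counts in this test. Sprr2f ran the other way in the P56 cauda, with 15.8 and 20.9 CPM in principal-gated cells, 3.30 and 0.763 CPM in basal-gated cells and 2.79 and 1.89 CPM in clear/narrow-gated cells. Without the filter the fitted log2 difference of basal minus principal was -3.38 for Sprr2f and 2.84 for Sprr2g. Under that setting the fit rests on sums of a few UMIs, most of them from the P56 cauda on which the members were chosen. No test is read from it. Sprr2g had 4.62 and 16.02 CPM in basal-gated against 0.430 and 1.56 CPM in principal-gated cells of the P56 cauda. Sprr2h had 22 and 85 UMIs in principal-gated and 0 in basal-gated cells of the P56 cauda. In clear/narrow-gated cells of the P56 cauda Sprr2g had 5.23 and 3.47 CPM. It passed the filter in the fit on the 3 cauda libraries alone, but through the classes where it was high, so that no test is read from that fit.

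**Figure D2:**
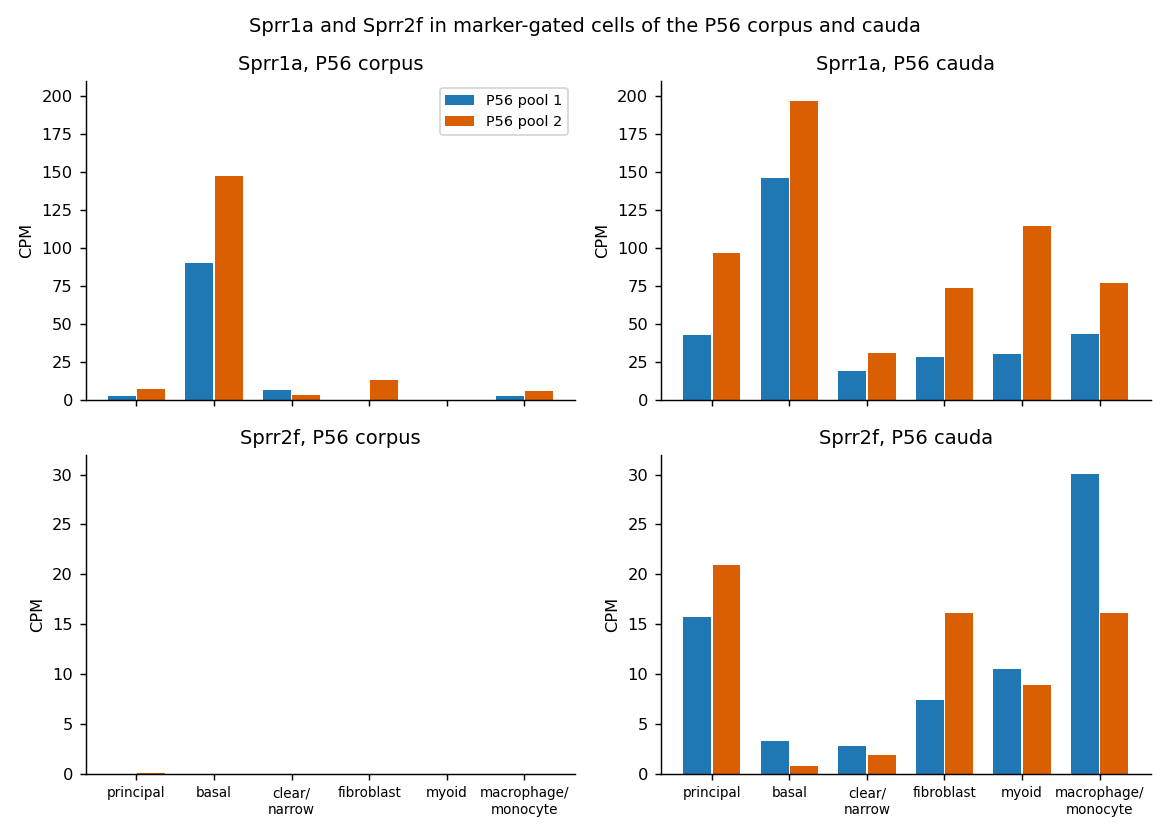
CPM of Sprr1a (top) and Sprr2f (bottom) in 6 marker-gated classes of the P56 corpus (left) and cauda (right), 1 bar for each pool. Of the classes shown, Sprr1a in the corpus had its highest CPM in basal-gated cells (90.3 and 147 CPM), and in the cauda it was present in every class shown, from 19.5 CPM up.

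The principal level depended on where the gate was set. A stricter gate kept 4448 principal-gated cells. Their Sprr1a in the P56 cauda fell to 17.1 and 12.1 CPM and their Sprr2f to 3.41 and 2.64 CPM. Cells richer in the principal cell markers thus held less of both. These markers included Lcn5, Lcn8, Gpx5 and Defb41, and the paper describes Defb41 as enriched in principal cells of the caput. Whether the score ranks principal cells of the cauda was not tested. Under the stricter gate basal-gated cells held 166 and 194 CPM of Sprr1a. Sprr2f was then at 3.48 and 1.11 CPM in basal-gated and 2.08 and 2.04 CPM in clear/narrow-gated cells, so that its principal-gated level no longer stood clear of the other classes. Cells that entered no class held 74.5 and 113 CPM of Sprr1a in the P56 cauda.

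Non-epithelial classes also held Sprr UMIs in the P56 cauda. Sprr1a was at 28.7 and 73.6 CPM in fibroblast-gated, 30.6 and 114 CPM in myoid-gated and 43.6 and 77.1 CPM in macrophage/monocyte-gated cells. Whether these cells made the RNA themselves was not tested. Smaller classes reached high levels in pool 2, with 201 CPM in 13 sperm-gated and 115 CPM in 29 halo/T-gated cells. In pool 1 these classes held 0 CPM in 6 cells and 55.5 CPM in 12 cells. The share of cells with a Sprr1a UMI was 10.9% (95% interval 9.58 to 12.2, exact Clopper-Pearson) and 19.6% (18.03 to 21.3) in principal-gated cells. It was 12.9% (9.67 to 16.8) and 19.1% (15.0 to 23.6) in fibroblast-gated cells, with median depths of 6058 and 7572 UMIs against 7626 and 8209 in principal-gated cells. In clear/narrow-gated cells it was 7.10% (4.90 to 9.87) and 12.6% (9.71 to 16.1), at median depths of 5765 and 6360 UMIs. The principal share thus stood above the clear/narrow share in pool 2. Its interval overlapped that of fibroblast-gated cells in both pools, and no expression in principal cells is read from the share alone. In basal-gated cells the share was 26.5% (20.8 to 32.8) and 38.01% (30.7 to 45.7), at median depths of 6204 and 6827 UMIs, although 36.2% (26.5 to 46.7) of the 94 myoid-gated cells in pool 2 also had a UMI. With each cell thinned to 1000 UMIs the shares became 2.72% and 6.08% in principal-gated, 2.75% and 5.33% in fibroblast-gated, 1.53% and 2.66% in clear/narrow-gated and 9.33% and 13.002% in basal-gated cells, with no P56 cauda cell of these classes under 1000 UMIs. Intervals cover counting error only.

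For Sprr2f the share was 2.60% and 4.03% in principal-gated cells and 2.20% and 3.81% in fibroblast-gated cells of the P56 cauda, whose intervals overlap (1.97 to 3.35 and 3.28 to 4.91 against 0.956 to 4.30 and 2.05 to 6.43). In clear/narrow-gated cells it was 1.77% (0.769 to 3.47) and 1.33% (0.490 to 2.87), below the principal share in pool 2, and again no expression is read from the share alone. The macrophage/monocyte level of Sprr2f in pool 1 (30.1 CPM) came from 31 UMIs, of which 27 were in 1 cell.

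UMIs of both genes were concentrated in few cells. In the P56 cauda 578 of 4836 cells in pool 1 and 974 of 4811 cells in pool 2 had a Sprr1a UMI, and 337 and 459 of them had exactly 1. The 85 and 247 cells with 5 or more UMIs held 59.7% and 70.0% of all Sprr1a UMIs, with up to 52 and 46 UMIs in a cell. Sprr2f was found in 106 and 159 cells, and 23 and 37 cells with 5 or more UMIs held 72.5% and 70.0% of its UMIs. Among principal-gated cells the 40 and 134 with 5 or more Sprr1a UMIs held 64.1% and 74.0% of the UMIs of that class, and among basal-gated cells 14 and 15 cells held 64.9% and 62.8%. High cells thus occurred in both classes, beside many cells with a single UMI.

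**Figure D3:**
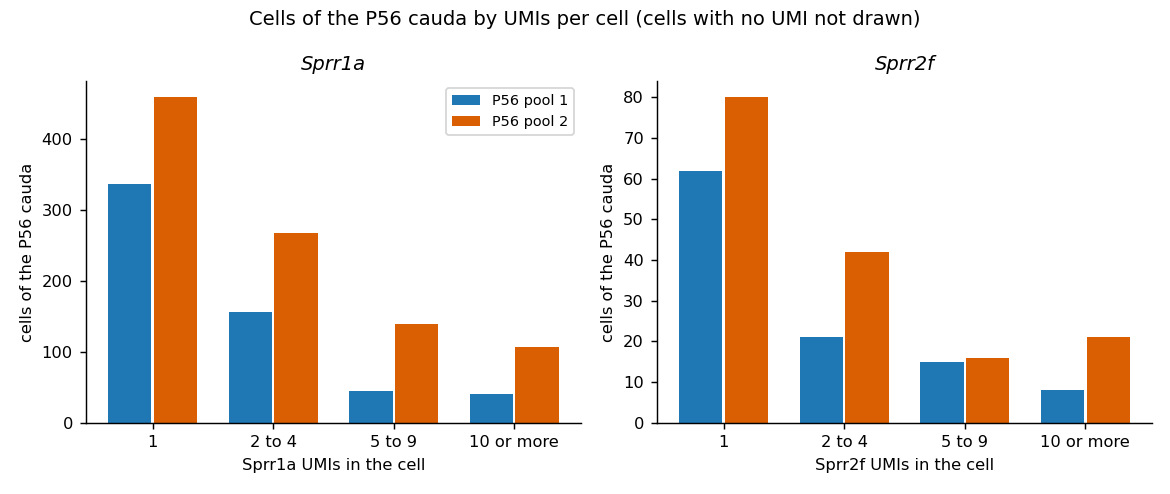
Numbers of P56 cauda cells (y axis) by the number of Sprr1a (left) and Sprr2f (right) UMIs in the cell, with 1 bar for each pool and cells without a UMI left out. Cells with 1 UMI were the most frequent bar for Sprr1a (337 and 459 cells), and 40 and 107 cells had 10 or more.

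The same cells tended to hold both genes. Among principal-gated cells of the P56 cauda, 6.72% (3.89 to 10.7) of 238 cells with a Sprr1a UMI in pool 1 had a Sprr2f UMI, against 2.10% (1.51 to 2.83) of 1955 without. In pool 2 the shares were 11.7% (8.90 to 15.0) of 462 and 2.17% (1.56 to 2.93) of 1893. With 5 or more Sprr1a UMIs they were 10.0% (2.79 to 23.7) of 40 and 20.9% (14.4 to 28.8) of 134. Cells with Sprr1a were also deeper, with median UMIs of 9116.5 against 7508 in pool 1 and 9359 against 7868 in pool 2, and the part of depth in these shares was not tested. In basal-gated cells 2 of 59 and 1 of 65 cells with Sprr1a had Sprr2f.

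CPM is less tied to depth and was compared in the same 2 sets of principal-gated cells, as a description over cells of the same libraries. At least 2-fold higher in cells with Sprr1a in both P56 pools were 6 of 8831 genes with 50 or more UMIs in each pool (0.0679%), which are named here after their values were seen. They were Sprr2f (4.49-fold and 8.63-fold), Sectm1b (3.37-fold and 2.97-fold), Lypd3 (2.77-fold and 2.48-fold), Areg, which encodes the EGF receptor ligand amphiregulin (2.27-fold and 2.24-fold), Csf3, the granulocyte colony-stimulating factor (2.23-fold and 2.28-fold), and Klf5, a transcription factor of proliferating epithelia (2.08-fold and 2.44-fold). Cells with Sprr2f had 43 such genes (0.487%), among them Sprr1a (4.89-fold and 4.72-fold) and Lypd3 (2.92-fold and 2.83-fold). Of the dissociation stress list 0 of 14 genes passed, as did 0 genes of 4 other lists, and with so few genes past overall nothing is read from these counts. Fos stood at 0.787 and 0.736 times and Egr1 at 0.767 and 0.714 times their level in cells without Sprr1a, and the median of the lower of the pool folds was 0.880, against 0.944 over all genes.

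**Figure D4:**
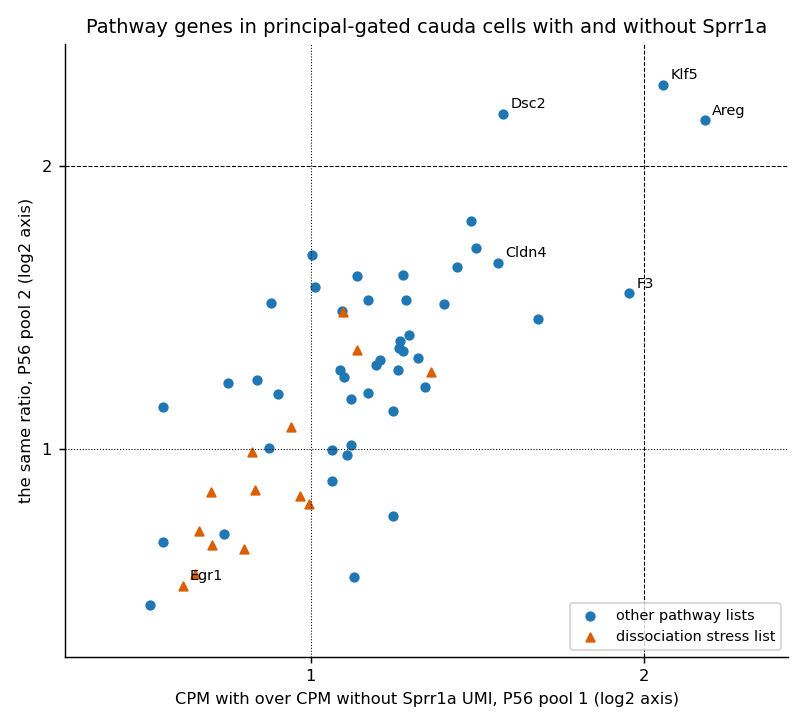
Ratio of CPM in principal-gated P56 cauda cells with a Sprr1a UMI to CPM in those without, in pool 1 (x) and pool 2 (y), both on log2 axes, for genes of the 7 pathway lists; dotted lines mark 1 and dashed lines 2. Areg and Klf5 lay past 2 in both pools, and Fos and Egr1 of the dissociation stress list lay below 1 in both.

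The genes whose log2(CPM + 1) followed the members most closely over the 9 libraries were found among 17306 genes with at least 100 UMIs, by Pearson's r given as a description, since libraries share mice and depth. Nearest to Sprr1a were 4930546K05Rik (r = 0.989), Cxcl5, a chemokine that attracts neutrophils (r = 0.984), Gm35439 (r = 0.983), Gng5, a G protein subunit (r = 0.973), and 1810041H14Rik (r = 0.972). Cxcl5 had 6.59 and 11.5 CPM in the P56 cauda, 2.08 and 4.66 CPM in the P56 corpus and 0.270 CPM in the P42 cauda. Nearest to Sprr2f were Gm14488 (r = 0.990), Nipal1, a magnesium transporter (r = 0.988), 2210017I01Rik (r = 0.987), the serine protease gene Tmprss7 (r = 0.981) and Csf3 (r = 0.981). Csf3 had 27.1 and 31.7 CPM in the P56 cauda and 0.386 to 2.45 CPM in the other 7 libraries. Sprr1a and Sprr2f themselves correlated at r = 0.870, and Sprr2f ranked 176 in likeness to Sprr1a.

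Genes of the cornified envelope pathway other than Sprr were then tested across segments and ages, by edgeR's quasi-likelihood test over all genes. The epidermal differentiation complex was represented by 9 of 34 listed genes among the rows, and 5 passed the filter. Across segments 3 of these 5 were called, against 25% of 18364 genes. The late cornified envelope gene Lce6a was highest in the cauda (log2 range 6.29, adjusted p = 0.0163), with 12.5 and 12.7 CPM in the P56 cauda, 2.16 CPM in the P42 cauda and at most 0.530 CPM elsewhere, while Lor, encoding loricrin, was highest in the caput (2.65, adjusted p = 0.00544), as was Tchhl1 (4.91, adjusted p = 0.0146). Loricrin had 5.06 to 6.11 CPM in the caput and 3.20 and 3.02 CPM in the P56 cauda, and involucrin (Ivl) had at most 0.112 CPM in any library. Partners of the Sprr proteins in the envelope thus did not move as one.

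Of the S100 genes, calcium-binding proteins of the same cluster, 5 of 12 tested were called across segments and all 5 were highest in the cauda, where 6.19% of all genes were called highest. S100a8, a subunit of calprotectin, had the widest range (5.12, adjusted p = 0.00557), and S100a14 followed (2.51, adjusted p = 0.0269). The median log2 difference of cauda minus caput was 1.08 over the list and 0.03 over all genes. Of the cross-linking and scaffold genes 6 of 19 were called, 2 of them highest in the cauda, among them Krtdap (3.70, adjusted p = 0.0485), which had 34.0 CPM in the P42 cauda but 1.49 and 1.34 CPM in the P56 cauda, below the 1.84 and 1.63 CPM of the P56 corpus, whereas the cystatin gene Csta1 was highest in the caput (7.55, adjusted p = 0.000998). Of the keratins 1 of 4 was called, Krt23, which was highest in the caput (9.23, adjusted p = 4.51e-05).

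Regulators known for Sprr genes in other tissues, among them AP-1 subunits, Klf and Ets factors and the IL-6 family, had 8 of 22 genes called across segments, all highest in the cauda (median 0.95), although in both P56 pools the cauda was above the corpus for 5 of the 8, the others being Il6, Jund and Lif. The 8 included Il6 (6.04, adjusted p = 0.00174), Fosb (2.92, adjusted p = 0.0399), Klf4 (2.83, adjusted p = 0.00287) and Klf5 (2.71, adjusted p = 0.00574). In principal-gated cells 13 of 20 were called (35.3% of all genes) and 12 were highest in the cauda (10.5% of all genes). In basal-gated cells 3 of 17 were called (11% of all genes), all highest in the cauda (Klf4, Klf5 and Elf3; 3.76% of all genes). Of the genes known to respond to dissociation of tissue 9 of 14 were called in all cells, all 9 highest in the cauda (median 1.58; 7 of the 9 above the corpus in both P56 pools). In principal-gated cells 12 of 14 were called, 11 of them highest in the cauda, and in basal-gated cells 1 of 14. Their part in the result was not tested. Several genes (Fos, Fosb, Jun, Junb and Atf3) stand on both lists. In all cells 36 genes of the 7 lists were called with all libraries, 3 without pool 1, 8 without pool 2 and 60 without the P42 pool.

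By age, the cauda showed mixed directions in the same lists. Called genes made up 13% (higher at P56) and 19.1% (lower at P56) of 21230 genes. These tests rest on 1 P42 library, assumed to vary like the P56 libraries. The gated make-up of the cauda also differed. There were 400 macrophage/monocyte-gated, 100 halo/T-gated and 65 basal-gated cells at P42, against 146 and 202, 12 and 29, and 223 and 171 at P56. Clear/narrow-gated cells numbered 122 at P42 against 451 and 451 at P56, and cells that entered no class 1891 against 1205 and 1051. Principal-gated cauda cells had a median of 1860.5 UMIs at P42, against 7626 and 8209 at P56. The part of make-up and depth in the age differences was not tested. Regulators had 5 genes higher and 7 lower of 23. The epithelial Ets factors Elf3 (log2 difference 3.799, adjusted p = 0.000107) and Ehf (2.59, adjusted p = 5.72e-05) were higher at P56. The IL-6 family cytokines Osm (-3.30, adjusted p = 0.000107) and Lif (-2.21, adjusted p = 0.00947) were lower. Elf3 had 147 and 190 CPM in the P56 cauda against 20.5 CPM in the P42 cauda, while Klf4 had 193 and 174 CPM against 1282 CPM. These CPM lack the scaling between libraries (TMM) that the fit uses. Their ratios therefore differ from the fitted log2 differences (3.799 for Elf3 and -2.03 for Klf4).

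Cross-linking and scaffold genes had 9 genes higher and 3 lower of 21 (median 1.12, against -0.05 over all genes), with Sfn, encoding stratifin (14-3-3σ), higher (3.62, adjusted p = 4.02e-05), as was Scel (2.28, adjusted p = 0.000129), and with Krtdap (-3.82, adjusted p = 9.06e-05) and Asprv1 (-4.11, adjusted p = 0.0351) lower. Epithelial repair genes had 6 higher and 4 lower of 18. The tight junction gene Cldn4 rose (3.66, adjusted p = 0.000110) with the EGF receptor ligand Hbegf (3.29, adjusted p = 7.65e-05), and the alarmin Il33 fell by 3.37 (adjusted p = 0.000132). Of the epidermal differentiation complex Lce6a (3.31, adjusted p = 0.000218) and Lor (1.62, adjusted p = 0.00755) were higher and Lelp1 lower (-3.83, adjusted p = 0.0175). S100 genes had 3 higher and 3 lower of 13, with S100a4 the most changed (-5.11, adjusted p = 3.87e-05), and Krt17 was higher and Krt80 lower among 5 keratins (3.97 and -1.63).

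Dissociation stress genes had 1 gene higher (Atf3) and 7 lower of 14 at P56, led by Dusp1 (-2.82, adjusted p = 4.02e-05) and Socs3 (-2.37, adjusted p = 6.52e-05). Their summed level was 19486 CPM in the P42 cauda and 7755 and 7377 CPM in the P56 cauda. With all cells summed this list was thus higher in the P42 than in the P56 cauda. In basal-gated cells the list was mixed, with 8 of 14 genes above 0 and 6 below. There 3 genes were called higher at P56 by edgeR (Atf3, Fosb and Ier3) and 0 lower, while Socs3 (-0.98, adjusted p = 0.0235, under the log2 limit) and Dusp1 (-0.68, adjusted p = 0.0909) lay below 0 as in all cells. Across P56 segments the summed level was 2100 and 2295 CPM in the caput, 5850 and 5723 CPM in the corpus and 7755 and 7377 CPM in the cauda. The part of this list in the Sprr1a levels was not tested. In principal-gated cells 19 of 86 list genes tested were called higher and 17 lower at P56, which is 22.1% and 19.8%, against 9.12% and 13.9% of all genes. In basal-gated cells 9 of 67 were called higher and 1 lower at P56, which is 13.4% and 1.49%, against 4% and 3.23% of all genes, with Hbegf (3.16), Atf3 (2.89), Cldn4 (2.06), Klf5 (1.88), Elf3 (1.80) and Sfn (1.68) higher, each by an adjusted p of at most 0.00340 from edgeR.

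**Figure D5:**
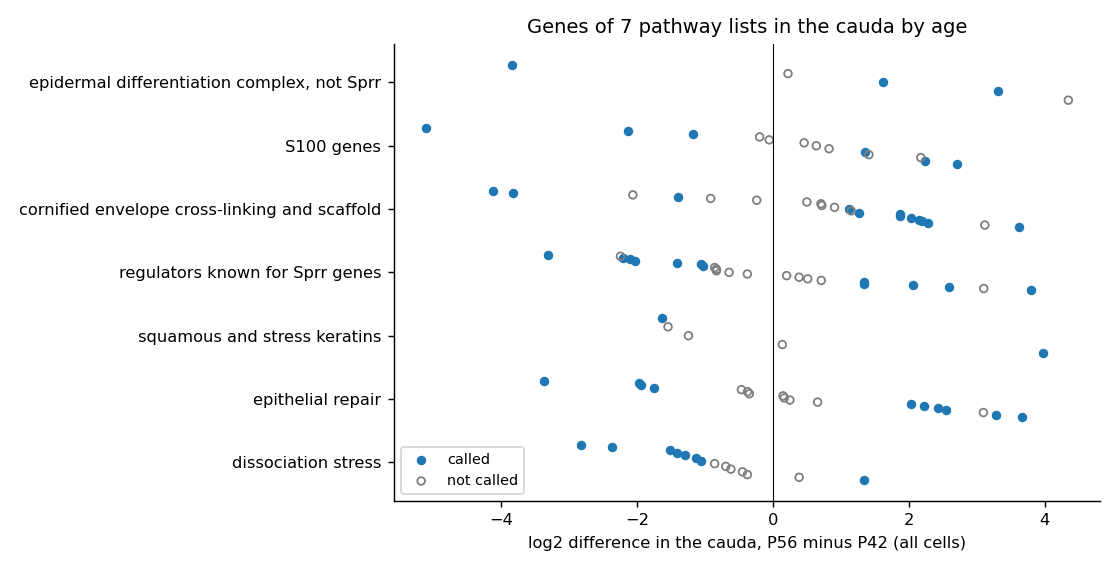
Log2 difference between the P56 cauda (2 libraries) and the P42 cauda (1 library) with all cells summed, for each tested gene of the 7 pathway lists; filled points were called by edgeR. Cross-linking and scaffold genes lay mostly to the right (9 called higher, 3 lower), and dissociation stress genes mostly to the left (1 higher, 7 lower).

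Markers of other tissues that express Sprr genes or could be carried along were read in the same libraries. Urothelial genes summed to 25.3 and 33.8 CPM in the P56 cauda, within the 19.7 to 58.1 CPM of the other libraries, although Upk2 alone had 346 and 452 UMIs in the P56 cauda against 6 to 67 elsewhere. The list of keratinized epidermis summed to 21.1 and 21.5 CPM in the P56 cauda and to 20.03 to 61.6 CPM elsewhere, and its defining keratin Krt1 had 1 and 12 UMIs there. Mesothelial genes were at 0.477 and 0.347 CPM in the P56 cauda against 31.1 CPM in the P42 cauda. Adipocyte genes were at 1.99 and 2.55 CPM against 50.8 CPM, where Car3 held 915 UMIs in the P42 cauda and 1 in each P56 cauda library, while Plin1 ran the other way with 19 UMIs against 67 and 98. Schwann cell genes were at 1.46 and 1.71 CPM against 3.94 CPM, with Sox10 at 0 in both P56 cauda libraries. The neutrophil list summed to 79.1 and 122 CPM in the P56 cauda, 75.2 CPM in the P42 cauda and 0.804 to 19.9 CPM elsewhere. In the P56 cauda almost all of it was S100a8. S100a9 had 50 and 95 UMIs there, against 0 and 18 in the P56 corpus and 68 in the P42 cauda. The defining neutrophil genes Retnlg and Csf3r had 1 to 8 UMIs in each P56 cauda library.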

How the data were processed

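Cells of the caput, corpus and cauda of 1 P42 and 2 P56 pools of mice were captured with the GEXSCOPE kit. Per the labels the authors used STAR 2.7.3a and UMI-tools with GRCm38.p6, and the deposited values are raw UMI counts per gene and barcode with no normalization. The columns of the P42 libraries carry the number 0 and were matched to that age by the study's cell number. Members and lists were chosen with earlier results of these data known. Barcodes with 300 to 4000 genes, at most 20000 UMIs and under 50% mitochondrial UMIs were kept. Globin-rich cells and 5 globin genes were left out, and no doublet caller was run (cells with markers of 2 classes, 558, were set apart). The gate asked for at least 2 distinct markers, a 3-fold excess and a Poisson -log10 p of 4. The markers were fixed, but this scoring rule was not: a gate on z-scores was tried first and replaced after the cells had been looked at. A test of whether the basal minus principal difference of the members differed between cauda and corpus was also run, passed the threshold for Sprr1a, and was dropped because it rests on the contrast the members were chosen on.

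Counts were summed per library, or per library and class, and compared with edgeR 4.0.16 in R 4.3.3 (filterByExpr, TMM, quasi-likelihood test, Benjamini-Hochberg adjustment over all genes). Genes were called at an adjusted p under 0.05 and a log2 difference of at least 1, between the highest and lowest segment for 3 segments. The SE is the log2 difference over the square root of F. The pool was a block for segments, because the segments of a pool share mice: deviations from the segment means correlated above 0.1 in 9 of 9 pairs within a pool (0.146 to 0.737) and in 4 of 18 pairs between pools. The library was the block for classes, and ages had none. For segments, where 1 of the 3 pools was P42, p-values measure how segment differences vary between pools, changes with age included. For classes they measure how the class differences vary between libraries (9, from 3 pools whose segments are not independent). For ages they measure the spread between the 2 P56 libraries of each of the 3 segments, with none from P42. On simulated counts with 200 genes changed 4-fold, the fit recovered 100% between segments (18131 genes), 77% between ages in the cauda (19491 genes) and 100% between basal and principal sums (9132 genes). False calls numbered 6, 13 and 1. The simulated counts had 1 fixed dispersion, no pool effect and no other changed genes, and sparse genes were not changed. They are thus simpler than the data, and the recovered shares do not give the power of the fits on real counts. DESeq2 1.42.0, no filter, other gates and blocks and left-out pools served as alternatives. Named pathway genes were up to 4 called genes with the largest difference per list and comparison, besides every Sprr row and the 5 genes nearest to Sprr1a and to Sprr2f. Genes named for single-cell ratios, list levels or a class were chosen after their values were seen.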

Additional observations from a re-analysis of the deposited data

Results flagged for a closer look

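Barcodes outside the limits on cells entered no comparison, yet those of the P56 cauda held Sprr UMIs above the level in the caput. In 133 such barcodes of pool 1 Sprr1a was at 41.3 CPM and Sprr2f at 11.2 CPM, and in 122 of pool 2 they were at 129 and 18.1 CPM. In the barcodes left out of the caput libraries Sprr1a reached at most 0.287 CPM and Sprr2f at most 0.0479 CPM.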

How the results depend on the processing

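Levels of Sprr1a and Sprr2f in the P56 cauda moved by less than the spread between pools, the SD of the 2 libraries, under 11 of 12 alternatives. Leaving out 1 of the 2 pools can never move a mean by more than that SD, so those settings are no check. The SD is also wide, since TMM scaling put Sprr1a at 93.4 CPM instead of 73.4 and counted as unmoved (SD 31.97). TMM scaling put Sprr2f at 17.4 CPM instead of 13.7. A stricter gate lowered the principal-gated mean of Sprr1a from 69.9 to 14.6 CPM and that of Sprr2f from 18.4 to 3.02 CPM, and a looser gate put basal-gated Sprr2f at 4.59 CPM instead of 2.03; the other 21 class levels moved by less than that spread. For Sprr1a without the replicate block (no replicate block), the log2 differences were 1.54 (basal minus principal), -1.59 (clear/narrow minus principal) and 3.13 (basal minus clear/narrow), none of them called. The cauda libraries alone gave 0.91 for basal minus principal. For clear/narrow minus principal DESeq2 gave -0.79, the stricter gate -0.0298 and leaving out a pool -1.23 to -0.51. Without P56 pool 1 Sprr1a failed the filter, so that no value was had. Without the filter Sprr2f gave -3.38 (basal minus principal) and -3.24 (clear/narrow minus principal). The cause of these changes was not tested.

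With a pool left out, the pathway genes called across segments numbered 3 to 60 in all cells (36 with all pools), 24 to 63 in principal-gated cells (51) and 5 to 35 in basal-gated cells (17), and 26 in basal-gated cells without the filter. The highest of these counts came without the P42 pool in each case, the lowest without P56 pool 1, and the cause was not tested. By age, list genes called lower in basal-gated cells (1) numbered 0 with DESeq2, 2 without the filter and 0 to 1 with a P56 cauda library left out. With the P56 replicate number as a replicate block for the ages, 27 list genes were called higher and 26 lower in all cells, against 26 and 24, and it moved no count of calls by over 1.5 times. Depth limits the Sprr2 genes other than Sprr2f, with at most 128 UMIs in a library.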
